A study of Rattus norvegicus with 12 samples.

Results

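Of 11478 probes with enough values in a deposited table of log2 ratios from rat liver, 33 had a mean ratio to vehicle-treated animals of at least 0.58 (1.49-fold) after each of 3 hormone treatments. These 33 probes are the members described here. They were selected on those very ratios, so their elevation over TXOX is given as a description and without a test. A probe entered when it had values on at least 3 of the 4 arrays of each treatment, the treatment value being the mean of those arrays. The members made up 0.288% of the probes that could enter, and 29 probes were lower by the same size in all 3 treatments.

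All animals were male Sprague-Dawley rats made hypothyroid with methimazole in the drinking water and orchidectomized (TXOX). TXOXE2GH rats were given estradiol (E2) benzoate for 27 days with growth hormone (GH) on the last 7, at doses their labels do not restate, TXOXE2 rats E2 benzoate alone at 50 µg/kg on 5 days a week for 27 days, and TXOXGH rats recombinant human GH alone at 0.3 mg/kg/day for 7 days. The reference was liver of vehicle-treated TXOX rats, 3 months of age. Each of 12 oligonucleotide arrays, 4 per treatment, carried treated liver in Cy5 and TXOX liver in Cy3. The labels disagree on the Cy3 sample: its characteristics give vehicle-treated TXOX, which was followed here, while its source field repeats the treated group. The dyes were never swapped, so dye and treatment cannot be told apart in a ratio to TXOX, whereas a dye effect cancels between treatments. Which TXOX animal was on which array is not given in the sources used here. In whole liver, a change in the share of a cell type and a change in RNA per cell cannot be told apart.

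E2 acts on hepatocytes through estrogen receptors, which regulate transcription in the nucleus, and also changes the release of GH from the pituitary. GH acts through its receptor, the kinase JAK2 and the transcription factor STAT5, and is a main regulator of liver genes that differ between males and females. In rats lacking thyroid hormone and testicular steroids, both routes start from a low hormonal background. The probes carry no gene names in the sources used here. Genes, pathway lists, cell type markers (including a check of the liver label) and probe sequences were therefore not analysed here, and members are called by their rank, from 1 for the highest to 33 for the lowest, on the lowest of their 3 treatment means.

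Across the members, mean log2 ratios to TXOX ran between 0.62 and 4.54 after E2 plus GH (median 1.13), between 0.61 and 3.45 after E2 (median 0.96) and between 0.59 and 4.47 after GH (median 1.00). The median over all 11478 probes was close to 0 in each treatment. The single-treatment shares at or above 0.58 were 1.42% of these probes after E2 plus GH, 3.18% after E2 and 1.67% after GH. In 11 members all 3 means reached 1. The highest of the 3 means was that of TXOXE2GH in 14 members, of TXOXE2 in 15 and of TXOXGH in 4. Members varied more between arrays than probes in general, with a median SD of 0.51 against 0.22 for all probes in TXOXE2GH livers, 0.36 against 0.20 in TXOXE2 livers and 0.33 against 0.19 in TXOXGH livers.

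Of the 390 member values on single arrays, 382 were above 0 and 327 were at least 0.58. Values were present on all 12 arrays for 28 members, on 11 for 4 and on 10 for 1. In 29 members every array was above 0, and in 10 every array was at or above 0.58. The members' median on single arrays was 1.02 to 1.44 in TXOXE2GH livers, 1.01 to 1.28 in TXOXE2 livers and 0.89 to 1.08 in TXOXGH livers. Ratios of single arrays are the deposited ones unless loess is named, and differences between treatments come from the loess ratios.

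Member 1, probe Rn30012044, had the highest ratios that were shared by all treatments. Its log2 ratios to TXOX were 3.59, 3.38, 4.46 and 3.19 in TXOXE2GH livers, 3.91, 3.08 and 3.29 in TXOXE2 livers and 1.96, 2.10, 3.49 and 1.57 in TXOXGH livers. No array was below 1.57, and the mean was 3.65 ± 0.56 after E2 plus GH (SD, n = 4), 3.43 ± 0.43 after E2 (SD, n = 3) and 2.28 ± 0.84 after GH (SD, n = 4). The spots next to it on the slide were not high, with mean ratios between -1.16 and 0.01. In the TXOX channel, member 1 was above local background on 7 of 12 arrays, counting an array when over 50% of the spot's pixels exceeded local background plus 2 SD.

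Member 3 had the widest range among treatments. Its ratios were 4.48, 5.37, 4.65 and 3.65 in TXOXE2GH livers, 1.53, 0.86 and 3.00 in TXOXE2 livers and 3.45, 4.34, 5.84 and 4.24 in TXOXGH livers. The TXOXE2GH and TXOXGH arrays overlapped, and all of them lay above the TXOXE2 arrays. TXOX signal of this probe was above background on 3 of 12 arrays only, and treated signal on 10, so the size of its ratios rests on a dim reference.

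At the other end, the 3 members just inside the threshold had lowest means of 0.61, 0.60 and 0.59. The 3 probes just outside it had 0.579, 0.570 and 0.561, each with 3 means between 0.56 and 0.70, so the boundary separates probes that hardly differ. Member 33, the last inside, had ratios of 0.68, 0.97, 1.21 and 1.14 in TXOXE2GH livers, 0.99, 0.90, 0.60 and -0.07 in TXOXE2 livers and 0.74, 0.41, 0.78 and 0.43 in TXOXGH livers. A further 8 probes had means at the threshold in all treatments but too few values to enter.

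Member 6 had ratios of 0.65, 1.56, 1.95 and 1.38 in TXOXE2GH livers, 1.39, 1.85, 1.42 and 1.24 in TXOXE2 livers and 1.69, 1.66, 1.39 and 1.28 in TXOXGH livers, all above 0.58. Member 8 had ratios of 3.06, 2.44, 1.42 and 1.71 in TXOXE2GH livers, 1.35, 1.60, 1.32 and 1.04 in TXOXE2 livers and 2.66, 1.72, 2.47 and 1.51 in TXOXGH livers, and its TXOX signal was above background on 4 of 12 arrays. Member 18 had ratios of 0.87, 0.57, 2.00 and 0.75 in TXOXE2GH livers, 1.87, 1.39, 2.76 and 2.16 in TXOXE2 livers and 0.16, 0.67, 1.21 and 0.97 in TXOXGH livers, so that its TXOXE2 arrays were the highest apart from an overlap with 1 TXOXE2GH array. Member 24 had ratios of 0.95, 0.84, 0.43 and 0.74 in TXOXE2GH livers, 0.86, 1.25, 1.29 and 1.33 in TXOXE2 livers and 0.51, 0.75, 0.51 and 0.91 in TXOXGH livers, with a TXOXE2 array within the range of the other treatments. Members 11, 12 and 14 had means between 0.92 and 1.39, and no array of theirs was below 0.14. In members 17, 20, 21, 25, 27, 28, 30, 31 and 32 the means ran between 0.60 and 1.10, and every array was above 0.

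Members 16, 19 and 26 reached the threshold as averages of discordant arrays. Member 16 had ratios of 0.02, -0.34, 1.18 and 2.67 in TXOXE2GH livers, 0.90, 1.60, 2.53 and -1.21 in TXOXE2 livers and -0.22, -0.70, 2.19 and 2.73 in TXOXGH livers. Within each treatment its arrays lay on both sides of 0.58, and its SD was 1.36 in TXOXE2GH livers, 1.59 in TXOXE2 livers and 1.71 in TXOXGH livers. Member 26 had ratios of 1.36, 0.80, 0.12 and 2.24 in TXOXE2GH livers, 0.77, 1.33, 1.39 and -0.90 in TXOXE2 livers and -0.28, 0.18, 0.89 and 2.06 in TXOXGH livers. Member 19 had ratios of 0.95, 0.07, 1.28 and 0.70 in TXOXE2GH livers, 0.55, 1.30, 1.22 and -0.03 in TXOXE2 livers and 0.45, 0.20, 1.65 and 1.00 in TXOXGH livers, with the same TXOXE2 array lowest as in members 16 and 26. The deviations of members 16 and 26 from their treatment means correlated with r = 0.82 over the same 12 arrays, which share each array's labelling and hybridization. Across all 528 pairs of members this correlation ran between -0.92 and 0.96.

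The deposited ratios were set against ratios computed here from the scanner intensities with a loess per array. All 33 members were again at or above 0.58 in the 3 treatments, as were 61 of 17858 probes (0.342%), 28 of them no members. With the loess run separately within each of the 48 printed blocks of the slide, 24 of the 33 members stayed at or above 0.58. Among all probes, 0.218% met the rule in those ratios. The same arrays had chosen the members, so these counts are a description and no independent check. Block medians of the loess ratios were -0.22 to -0.01 in blocks 1 to 12 for TXOXE2GH, -0.41 to -0.01 for TXOXE2 and -0.23 to -0.08 for TXOXGH, and were higher at the other end of the slide, at -0.01 to 0.21 in blocks 37 to 48 for TXOXE2GH, 0.09 to 0.38 for TXOXE2 and 0.07 to 0.41 for TXOXGH. These 12 blocks held 17 members (51.5%) and 25.5% of the probes that could enter. Of the 9 members that dropped below 0.58 with the loess within blocks, 8 lay there. The part of slide position in their elevation was not tested beyond this.

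Block 27 held 5 members in 2 runs of consecutive spots. In row 18, members 2, 10, 5 and 9 stood side by side. In loess ratios the spot before them was at 0.18 after E2 plus GH, 0.15 after E2 and 0.17 after GH, and member 2 was at 2.89, 3.64 and 2.05 in the same order. The next 4 spots, no members, were at 0.69 to 1.36 after E2 plus GH, 0.97 to 1.28 after E2 and 0.07 to 0.48 after GH. The ratios stepped up at member 2, stayed high over the 4 members, without a steady order among them, and were lower at the spots after member 9.

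The second run began with member 4, probe Rn30026942, in row 24. Its loess ratios averaged 2.57 after E2 plus GH, 3.45 after E2 and 1.65 after GH. The spot after it is an empty position, and it gave 2.52, 3.47 and 1.72 in the same order. Net Cy5 intensity averaged 8183 at member 4 and 8457 at the empty position in TXOXE2GH livers, 12039 and 12191 in TXOXE2 livers, and 6679 and 6956 in TXOXGH livers. Ratios were lower further along the row and reached 0.53, 0.81 and 0.36 at the eighth spot after member 4. Most of the spots between are control spots, but the fourth after member 4 carries a probe of the deposited table, at 1.94, 2.01 and 1.20, which is 1 of 12 copies of that probe on the slide. Of 246 empty or control spots with enough values, 6 met the rule, and all 6 were in this run. An empty position thus carried the ratios of the member before it. What the neighbouring spots contribute to the values of members 2, 4, 5, 9 and 10 was not tested. For the main counts of called members below, the part of these 5 is given, and other counts include them.

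Members 14 and 21 lie in block 41, at column 24 of row 19 and column 1 of row 20, and so at opposite sides of the block. Member 14 averaged 0.93 after E2 plus GH, 1.42 after E2 and 1.08 after GH in loess ratios, and member 21 averaged 0.78, 0.94 and 0.71 in the same order. The spot beside member 14 in its row was at 0.57, 0.72 and 0.38, and the spot beside member 21 in its row at 0.59, 0.69 and 0.45. The deviations of members 14 and 21 from their treatment means had the highest correlation of any pair (r = 0.96 over 12 arrays), followed by members 5 and 9 of block 27 (r = 0.96).

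In 3 members the TXOX channel was above background on no array of a treatment, so the size of the ratio is uncertain there. A floored ratio was computed for these. It sets treated signal against the probe's own TXOX signal or the array's dimmest TXOX signal above background, whichever is larger. The true TXOX signal may exceed that value, so the floored ratio is no strict lower bound. After E2 plus GH, the floored ratio to TXOX was 4.45-fold in member 22, 2.74-fold in member 23 and 2.12-fold in member 17. After E2, the floored ratio of member 17 was 1.67-fold. Treated signal was above background on 8 of 12 arrays for member 17 and on 11 for members 22 and 23. The floored ratios of member 17 may therefore rest in part on dim treated signal. In 15 of the 33 members both channels were above background on all 12 arrays. Members were mostly bright, 26 of them above the median brightness of the probes that could enter. Members 1, 2 and 4 had saturated pixels on 1 array each.

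How the treatments differed from each other was tested with limma on the loess ratios, with 9 residual degrees of freedom and adjustment over all probes tested. The rule set a floor under all 3 means and did not use their differences, although it does limit how low any mean can be. Some difference among the 3 treatments was called for 7 members by the F-test, against 1.05% of all probes.

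TXOXE2 and TXOXGH livers differed in 7 members, against 1.1% of the 18879 probes tested. After E2, 5 of them were higher (0.408% of all probes) and 2 lower (0.694%). The 5 higher ones were members 2, 4, 5, 9 and 10, which are the 5 members of the block 27 runs. Outside these runs, 2 of 28 members were called.

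Member 4 had ratios of 2.00, 2.19, 3.27 and 2.50 in TXOXE2GH livers, 3.77, 2.95 and 3.25 in TXOXE2 livers and 1.50, 1.45, 2.11 and 1.20 in TXOXGH livers. All TXOXE2 arrays were above all TXOXGH arrays, and the difference was 1.80 ± 0.28 (SE; adjusted p = 0.00299, limma). Member 2 had ratios of 2.15, 2.88, 3.74 and 2.12 in TXOXE2GH livers, 3.89, 3.13, 2.79 and 4.00 in TXOXE2 livers and 2.02, 1.88, 2.49 and 1.48 in TXOXGH livers. Its TXOXE2 arrays also lay above all its TXOXGH arrays, with a difference of 1.59 ± 0.34 (SE; adjusted p = 0.0288, limma). In members 5, 9 and 10 the TXOXE2 arrays ran between 2.27 and 3.62 and the TXOXGH arrays between 0.96 and 1.77, without overlap. Their differences were 1.65 ± 0.29, 1.53 ± 0.23 and 1.53 ± 0.27 (SE), with adjusted p of 0.00782, 0.0022 and 0.00782 (limma).

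The 2 members lower after E2 than after GH were 3 and 15. Member 3, given above, differed by -3.24 ± 0.61 (SE; adjusted p = 0.0128, limma). Its loess ratios include TXOXE2 replicate 2 at 0.49, which the deposited ratios lack. The call was kept in 19 of 23 alternative fits. It was lost with plain background subtraction (adjusted p = 0.112, limma) and with robust variances (adjusted p = 0.105, limma). The filter on dim spots left member 3 out of the test. Member 15 had ratios of 2.97, 2.25, 2.22 and 2.19 in TXOXE2GH livers, 1.60, 0.80, 0.62 and 0.50 in TXOXE2 livers and 1.80, 2.04, 1.83 and 1.80 in TXOXGH livers. All TXOXE2 arrays were below all TXOXGH arrays, and the difference was -1.07 ± 0.23 (SE; adjusted p = 0.0327, limma). Members 13 and 15 stand at the same row and column of 2 different blocks and carry adjacent probe numbers. With scaling of the ratios between arrays, 2 members were called in place of 7, and 170 of all probes in place of 208. Leaving out 1 array at a time, members 4, 5, 9 and 10 kept their call in each of 12 fits, member 3 in 10, member 2 in 6 and member 15 in 5.

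TXOXE2GH and TXOXE2 livers differed in 4 members, against 0.786% of the 17937 probes tested. All 4, members 3, 13, 15 and 22, were higher after E2 plus GH (0.446% of all probes were called higher). None was in the block 27 runs. Member 3 differed by 3.28 ± 0.61 (SE; adjusted p = 0.0185, limma), and its TXOXE2GH arrays were all above its TXOXE2 arrays. Member 15 differed by 1.62 ± 0.23 (SE; adjusted p = 0.00294, limma), also without overlap. The spot after member 15 on the slide, no member, had loess ratios of 1.44 after E2 plus GH, 0.48 after E2 and 1.05 after GH. The spot before it was at -0.08, 0.10 and 0.01 in the same order. Raised neighbours also occurred elsewhere. The spot before member 8 was at 0.63, 0.86 and 0.90 in the same order, and the spot after member 19 at 0.66, 0.58 and 0.76. Neighbours of the remaining members are not all given here. What raised neighbours contribute to the values of members 8, 15 and 19 was not tested.

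Member 13 had ratios of 1.91, 1.40, 2.03 and 2.19 in TXOXE2GH livers, 1.37, 0.86, 0.66 and 0.83 in TXOXE2 livers and 1.98, 1.42, 1.61 and 1.57 in TXOXGH livers. Each TXOXE2GH array was above each TXOXE2 array, and the difference was 1.03 ± 0.20 (SE; adjusted p = 0.0265, limma). Member 22 had ratios of 2.42, 2.92, 2.65 and 1.08 in TXOXE2GH livers, 1.20, 0.28, 0.52 and 0.78 in TXOXE2 livers and 0.95, 1.75, 1.46 and 0.61 in TXOXGH livers. One TXOXE2GH array overlapped the TXOXE2 arrays, and the difference was 1.73 ± 0.38 (SE; adjusted p = 0.0466, limma). TXOX signal of member 22 was above background on 2 of the 4 TXOXE2 arrays and on none of the TXOXE2GH arrays. The count depended on single arrays: it was 2, 1, 1 and 2 without TXOXE2 replicates 1 to 4, 2 without TXOXE2GH replicate 1 or 2 and 7 without TXOXE2GH replicate 3. Calls over all probes also changed, from 141 to 67, 68, 50 and 95 without TXOXE2 replicates 1 to 4. They were 49 and 65 without TXOXE2GH replicates 1 and 2, and 237 without TXOXE2GH replicate 3. Member 15 kept its call in each of these fits, member 3 in 8, member 13 in 7 and member 22 in 3 of 12.

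TXOXE2GH and TXOXGH livers differed in 0 members and in 0% of the 18695 probes tested with limma without pairing. At an unadjusted p under 0.05 there were 13 members, all higher after E2 plus GH, and 1092 probes, 453 of them higher and 639 lower. The 13 include all 5 members of the block 27 runs. The difference was positive in 26 members, with a median of 0.25 over the 33 members and of -0.01 over all probes. Arrays of the same replicate number in these groups deviated from their group means together (r of 0.31 to 0.45). With the 8 arrays paired by number, a fit added after seeing the data, 8 members were called, all higher after E2 plus GH. In that fit 0.374% of all probes were called and 0.112% were called higher. With the replicate number as a block over all 12 arrays, 0 members were called.

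The 8 members of the paired fit were 1, 4, 5, 7, 9, 22, 23 and 29, of which 4, 5 and 9 are in the block 27 runs. Each was higher after E2 plus GH in 4 of 4 pairs. Member 1 had loess pair differences of 1.70, 1.20, 0.96 and 1.59, with a mean of 1.36 ± 0.14 (SE; adjusted p = 0.00133, limma). Member 22 had pair differences of 1.54, 1.38, 1.41 and 0.51, with a mean of 1.21 ± 0.17 (SE; adjusted p = 0.0102, limma). Member 7 had ratios of 2.39, 3.14, 1.59 and 2.62 in TXOXE2GH livers, 3.01, 1.11, 2.25 and 3.04 in TXOXE2 livers and 1.90, 2.24, 0.11 and 1.14 in TXOXGH livers. Its TXOXE2GH and TXOXGH arrays overlapped, while its paired difference was 1.08 ± 0.17 (SE; adjusted p = 0.0152, limma). Member 29 had ratios of 2.10, 1.98, 0.72 and 1.20 in TXOXE2GH livers, 0.58, 0.56, 0.38 and 0.94 in TXOXE2 livers and 0.75, 1.06, 0.37 and 0.32 in TXOXGH livers, with a paired difference of 0.90 ± 0.15 (SE; adjusted p = 0.0208, limma). Member 23 differed by 0.78 ± 0.15 (SE; adjusted p = 0.0456, limma). In members 22 and 23 no TXOXE2GH array had TXOX signal above background, which limits the size of these differences.

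The 3 treatment means of each member were also set side by side, as a description, since they share TXOX as their reference. The TXOXE2GH mean was above both single-hormone means in 14 members, between them in 12 and below both in 7. It was below the sum of the 2 single-hormone log2 ratios in 31 members and above it in members 22 and 29. The rule put both single-hormone means at or above 0.58, which raises their sum. An offset shared through TXOX or the dye also enters that sum from both means. The share over all probes was not computed, and whether the hormones add was not tested. Member 22 averaged 2.27 ± 0.82 after E2 plus GH, 0.70 ± 0.39 after E2 and 1.19 ± 0.51 after GH (SD, n = 4 each). The TXOXE2GH mean of member 22 is a ratio to TXOX signal that was above background on none of its 4 arrays. The size of that mean is therefore uncertain, and its place above the sum rests on a dim reference. Member 29 averaged 1.50 ± 0.66, 0.62 ± 0.24 and 0.63 ± 0.35 in the same order. Member 6 showed nearly equal means, with 1.38 ± 0.55 after E2 plus GH, 1.47 ± 0.26 after E2 and 1.50 ± 0.20 after GH (SD, n = 4 each). With the loess within printed blocks, member 6 averaged 1.35, 1.11 and 1.28 in the same order. Its differences between treatments were -0.10 to -0.02 in the ratios of the loess per array, with an SE of 0.23. This leaves differences of that order undetectable with 4 arrays per treatment.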

How the data were processed

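Hepatic RNA of 12 treated rats, 4 per treatment, was compared with TXOX RNA on 2-colour arrays of 27648 spots in 48 printed blocks. Per the labels, 5 µg of RNA was reverse-transcribed and labelled for each sample. The authors deposited the scanner's intensity values (foreground and local background medians), the percent of pixels above background and of saturated pixels, and spot flags. A second deposited file holds log2 ratios of treated to TXOX for 22163 probes, which the authors normalized by LOWESS. Its scale and direction were checked against ratios computed from the intensities (r of 0.889 to 0.987 per array). Arrays had 19130 to 22346 unflagged probe spots, and their number limits the precision.

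Members were found in the deposited log2 ratios. From the intensities, background was corrected by normexp (offset 50) and ratios were normalized by a global loess in limma 3.58.1 (R 4.3.3). Flagged spots and 554 control or empty spots were left out, and 12 probes printed 12 times were averaged, which left 26962 probes. All 12 arrays entered 1 linear model of the treatment means, and the 3 differences between treatments and their F-test were taken from limma's moderated tests with a variance trend and Benjamini-Hochberg adjustment at 0.05, for probes with values on 3 of 4 arrays per group. The code was tested on simulated data. p-values measure the spread between arrays, in which treated animals, labelling and hybridization cannot be separated. The spread of TXOX animals enters only through the ratios. The main fit treated the arrays as independent.

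The members, the rule and the alternatives were chosen with earlier results of these data known. Text was to describe the top 15 members, 3 probes on each side of the threshold and every member called between treatments. Other members shown (1, 4, 5, 7, 9, 22, 23 and 29 in the paired fit, and 6, 8, 16 to 21 and 24 to 33) were partly chosen after their values were seen. Gene lists and cell type markers were not analysed here, since probes carry no gene names, and the authors' SAM test was not run.

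The labels give all treatments replicate numbers 1 to 4. After the group means were subtracted, r was 0.31 to 0.45 between TXOXE2GH and TXOXGH arrays of the same number, over 0.1 in each of 4 pairs, so these were taken as pairs from the data alone. Between TXOXE2 and TXOXGH r was -0.17 to 0.21 and between TXOXE2GH and TXOXE2 -0.15 to 0.11, so those arrays were left unpaired. Alternatives covered background, normalization, filters, the deposited ratios, variance estimates, the arrays in the fit and the replicate number as a block. The paired fit and counts without the block 27 members were added after seeing the data.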

Additional observations from a re-analysis of the deposited data

Results flagged for a closer look

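In 7 of 93 groups of 4 arrays, 1 array stood apart from the other 3 in the deposited ratios of a member, by a gap above Dixon's 95% critical value, where chance alone gives about 5% of groups. Member 9 had 3.09 on TXOXE2GH replicate 3, against 1.84 to 1.91 on the others, and 0.996 on TXOXGH replicate 4, against 1.39 to 1.47. Member 10 had 3.04 on TXOXE2GH replicate 3, against 1.49 to 1.72. Member 15 had 2.97 on TXOXE2GH replicate 1, against 2.19 to 2.25, and 2.04 on TXOXGH replicate 2, against 1.80 to 1.83. Member 24 had 0.86 on TXOXE2 replicate 1, against 1.25 to 1.33. Member 27 had 1.06 on TXOXE2 replicate 2, against 0.46 to 0.54. Members 9 and 10 lie in the same run of block 27 and were both highest on TXOXE2GH replicate 3.

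Spots that carry no rat liver probe of the deposited table also showed signal above TXOX. After E2, the empty position of block 27, row 24 had a mean loess log2 ratio of 3.47, and 5 control spots after it had 2.74, 2.59, 2.07, 1.34 and 1.02. All 6 reached 0.58 in the 3 treatments, while none of the other 240 empty or control spots with values did. They follow member 4 on the slide, and their part in its ratios was not tested.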

How the results depend on the processing

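Of 136 alternative values for the 6 counts, 110 stayed within 1.5 times the main count. The rule was met by 33 probes in the deposited ratios, by 61 in the loess ratios made here, by 232 with plain background subtraction and by 11 at a threshold of 1, and by 28 to 41 when 1 array was left out. The cause of these shifts was not tested. Scaling between arrays gave 2 members in place of 7 for TXOXE2 against TXOXGH, 2 in place of 4 for TXOXE2GH against TXOXE2 and 2 in place of 7 for the F-test. Over all probes, scaling gave 170 calls in place of 208 for TXOXE2 against TXOXGH and 65 in place of 141 for TXOXE2GH against TXOXE2. For TXOXE2GH against TXOXE2, robust variances, no variance trend and the arrays of the 2 groups alone each gave 2 members. Their calls over all probes were 132, 64 and 70 in the same order. Leaving out 1 array gave 5 to 9 members for TXOXE2 against TXOXGH, 0 to 1 for TXOXE2GH against TXOXGH, 1 to 7 for TXOXE2GH against TXOXE2 and 3 to 10 for the F-test, and 29 to 33 members at the fold in the loess ratios. Calls over all probes then ran between 110 and 248 for TXOXE2 against TXOXGH and between 49 and 237 for TXOXE2GH against TXOXE2. They were not counted for the F-test alternatives, nor for TXOXE2GH against TXOXGH with 1 array left out. Without the 5 members of the block 27 runs, 2 were called for TXOXE2 against TXOXGH and 3 by the F-test.

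With the replicate block over all 12 arrays, 10, 0 and 6 members were called in place of 7, 0 and 4, and 11 by the F-test. Calls over all probes rose as well, to 308, 2 and 271 in place of 208, 0 and 141. The replicate block on the TXOXGH and TXOXE2GH arrays alone gave 8 members in place of 0, and 70 of all probes in place of 0. The differences called without pairing (7 for TXOXE2 against TXOXGH and 4 for TXOXE2GH against TXOXE2) kept their direction in the fits run for them, and those of the paired fit were not refitted. A block by slide or scan was not run, since no file header groups arrays that way. Dim TXOX signal limits the size of the ratios of members 3, 8, 17, 23 and 25, whose TXOX channel was above background on 1 to 4 of 12 arrays.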
